A study of Mus musculus with 10 samples.

Results

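Normal fibroblasts (NFs) of the mouse mammary gland lost nearly all messenger RNA of a small group of genes when they were cultured beside tumor cells. The 10 genes described here are Chl1, Crocc2, Sned1, Egfl6, Ecrg4, Galnt9, Itgbl1, Scn7a, Alpl and Slc1a3, out of 55486 genes in the count table. They were chosen by their fall from NFs alone to co-cultured NFs in these same libraries, so the depth of that fall is a description and carries no test. In co-culture their levels ran from 0 to 39.5 CPM (counts divided by the library total and scaled to a total of 1000000), against 27.4 to 2891 CPM in NFs alone.

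The study grew cells for 7 days in collagen gels with basement membrane extract and sequenced 10 libraries from 5 gels. NFs came from mammary glands of 8-week-old mice of the genotype mTmG, a reporter that is red (tdTomato) until Cre recombinase switches it to green (GFP), and they were sorted into cells with and without CD26, the surface peptidase that Dpp4 encodes. Cells of several mice were pooled for sorting and grown in 2D before the gels. CD26+ NFs had been turned green with an adenovirus carrying Cre, whereas CD26- NFs stayed red, so the virus and the subset cannot be told apart. Gel 1 held both NF subsets without tumor cells and gave 1 library of each. Gels 2 and 3 held tumor cells alone, of the lines 13-MCB-17 and 10-SJK-221, with 1 library each. Gel 4 held both NF subsets with 13-MCB-17 and gel 5 both with 10-SJK-221, and each of these gels gave a CD26- NF, a CD26+ NF and a tumor cell library. Both lines come from mice in which Cre under the whey acidic protein promoter (WapCre) deletes floxed alleles, Cdh1F/F among them, in mammary epithelium, a model of invasive lobular carcinoma. NFs alone were thus a single gel without a replicate, and a property of that gel cannot be told apart from the absence of tumor cells.

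Libraries held 14142334 to 18408940 counts, and the 3 counts that an observed 0 still allows equal 0.163 to 0.212 CPM, for counting error only. A panel of 10 fibroblast genes summed to 71959 and 77152 CPM in NFs alone, to 25021 to 43562 CPM in co-cultured NFs and to 1267 to 2701 CPM in tumor libraries, there nearly all Vim. By the edgeR test in NFs, Col1a1, Col1a2, Col3a1 and Pdgfra were lower in co-culture, Dcn and Thy1 were higher and the other 4 did not pass. Dpp4 itself was near 0 everywhere, at no more than 0.0575 CPM in CD26- NFs and at 0.281 to 0.771 CPM in CD26+ NFs, so its mRNA hardly checks the sort. A panel of 10 epithelial genes went from 0.807 and 1.12 CPM in NFs alone to between 121 and 329 CPM in co-cultured NFs, against 4361 to 5745 CPM in tumor libraries. The part of these shifts in the results was not tested. In bulk RNA, fewer expressing cells and less RNA per cell cannot be told apart.

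Fibroblasts build and maintain the matrix of connective tissue and anchor, feed and instruct the epithelium beside it. Genes that mark resting fibroblasts often encode matrix proteins, adhesion molecules and secreted factors, and culture and tumors are both known to reshape them. Of the 10 genes, Sned1, Egfl6 and Itgbl1 encode secreted or matrix proteins with EGF-like repeats, and Chl1 a cell adhesion molecule of the L1 family. Ecrg4 encodes a secreted peptide precursor, Alpl and Galnt9 encode enzymes, Scn7a and Slc1a3 encode a sodium channel and a glutamate transporter, and Crocc2 encodes a relative of rootletin, the protein of ciliary rootlets.

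All 10 are protein-coding genes, spread over 8 chromosomes (GRCm38). Crocc2 (ENSMUSG00000084989, chromosome 1, 93168725 to 93231072) and Sned1 (ENSMUSG00000047793, chromosome 1, 93235841 to 93301065) are next to each other on the same strand, 4768 bases apart. Ecrg4 (ENSMUSG00000026051) is also on chromosome 1, at 43730602 to 43742578. Chl1 (ENSMUSG00000030077) is at 103510586 to 103750211 of chromosome 6, Egfl6 (ENSMUSG00000000402) at 166523007 to 166585720 of chromosome X, and Galnt9 (ENSMUSG00000033316) at 110544355 to 110621380 of chromosome 5. Itgbl1 (ENSMUSG00000032925) is at 123659971 to 123975618 of chromosome 14 and Scn7a (ENSMUSG00000034810) at 66673425 to 66784914 of chromosome 2. Alpl (ENSMUSG00000028766) is at 137741733 to 137796384 of chromosome 4, and Slc1a3 (ENSMUSG00000005360) at 8634124 to 8710764 of chromosome 15. Of the exon bases of Sned1, 19.6% are shared with Mterf4 on the opposite strand and with Mir6901. The use of strand in counting was not given in the sources used here, so a part of the Sned1 count may belong to them. No other gene of the group shares exon bases with a neighbor.

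Promoter windows of 300 bases (250 before and 50 after a RefSeq transcription start, GRCm38.p6) were available for all 10 genes, 12 windows in all, since Galnt9 and Alpl have 2 each. The windows of 4 genes are shown because the results turn on them: the neighbors Crocc2 and Sned1, Egfl6, which reached 0 counts most often together with Galnt9, and Itgbl1, the gene whose fall differed between the subsets. Each reads 5′ to 3′ on the strand of the gene, and capitals mark CCAAT or GGGCGG on either strand.
Crocc2, chr1:93168173-93168472, plus strand: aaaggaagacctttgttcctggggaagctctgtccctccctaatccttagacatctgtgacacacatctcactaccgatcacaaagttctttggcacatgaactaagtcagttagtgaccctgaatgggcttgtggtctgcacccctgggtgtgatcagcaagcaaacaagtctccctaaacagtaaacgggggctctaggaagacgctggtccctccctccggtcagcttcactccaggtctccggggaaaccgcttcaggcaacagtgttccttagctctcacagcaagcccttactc
Sned1, chr1:93235647-93235946, plus strand: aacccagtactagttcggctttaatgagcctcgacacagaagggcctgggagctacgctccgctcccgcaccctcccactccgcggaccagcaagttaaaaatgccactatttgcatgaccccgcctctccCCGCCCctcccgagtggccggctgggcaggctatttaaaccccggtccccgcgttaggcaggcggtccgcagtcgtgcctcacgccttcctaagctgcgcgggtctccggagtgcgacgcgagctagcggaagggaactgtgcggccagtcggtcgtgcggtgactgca
Egfl6, chrX:166585667-166585966, minus strand: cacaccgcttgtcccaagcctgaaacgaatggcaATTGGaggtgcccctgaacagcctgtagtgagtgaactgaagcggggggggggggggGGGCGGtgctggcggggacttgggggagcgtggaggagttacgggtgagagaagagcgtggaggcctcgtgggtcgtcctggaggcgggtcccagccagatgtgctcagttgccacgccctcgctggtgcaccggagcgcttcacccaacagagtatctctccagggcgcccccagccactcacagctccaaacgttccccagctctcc
Itgbl1, chr14:123659890-123660189, plus strand: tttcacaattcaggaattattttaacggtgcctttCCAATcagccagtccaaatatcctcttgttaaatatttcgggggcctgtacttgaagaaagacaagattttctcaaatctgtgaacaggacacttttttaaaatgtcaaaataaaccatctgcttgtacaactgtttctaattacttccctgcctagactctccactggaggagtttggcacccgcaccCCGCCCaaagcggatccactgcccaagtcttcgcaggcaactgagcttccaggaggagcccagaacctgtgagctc

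The windows differed from each other in composition. The share of G and C was 52.3% for Crocc2, 64.3% for Sned1, 65.3% for Egfl6 and 45.3% for Itgbl1. The ratio of observed to expected CpG was 0.30, 0.94, 0.54 and 0.40 in the same order. Sned1 thus had a CpG-rich start beside the CpG-poor start of Crocc2. Over all 12 windows the median share of G and C was 53.9% and the median CpG ratio 0.35, against 52.7% and 0.38 over 32851 windows of all genes. Of 6 motifs searched on both strands, GGGCGG, the core of a GC box, was in 7 of the 12 windows (Alpl, Egfl6, Galnt9, Itgbl1, Scn7a, Slc1a3 and Sned1) and in 35.7% of all windows. CCAAT was in 3 (37.4% of all), TATAAA in 2 (13.6%), GGAATG in 2 (14.7%), CACGTG in 1 (7.15%) and TGANTCA in 0 (7.81%). No match of a motif overlapped a match of another. None of these motifs was in the window of Crocc2, and none was shared by all members. These matches describe letters in the windows and were not tested.

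Before co-culture the 10 genes covered a wide range of levels. Per kilobase of exon, the mean of both libraries of NFs alone was highest for Ecrg4 (330.4 CPM per kb) and Sned1 (249), which ranked 80 and 121 among 8540 genes with at least 10 CPM in both libraries. Alpl (39.5), Egfl6 (35.2), Itgbl1 (26.4) and Chl1 (23.0) followed. Scn7a (19.0), Galnt9 (18.0), Crocc2 (14.4) and Slc1a3 (13.5) were the lowest. The group thus held abundant and moderately expressed transcripts of NFs alone. As CPM, 6 genes were higher in CD26- NFs alone and 4 (Egfl6, Ecrg4, Galnt9 and Itgbl1) in CD26+ NFs alone.

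In co-cultured NFs, every gene was lower in all 4 libraries than in both libraries of NFs alone, as the choice of the genes required. In the fit over all genes, 22.9% were called lower in co-culture and 25.9% higher, 48.8% in all. Of the 40 values of these genes in co-cultured NFs, 8 were 0 counts and 15 were at or under 3 counts. The median fold of NFs alone over co-culture, with 0 counts set to 3, was 334 in CD26- NFs of gel 4, 447 in CD26- NFs of gel 5, 286 in CD26+ NFs of gel 4 and 232 in CD26+ NFs of gel 5. Both co-culture gels share gel 1 as their reference, so their folds are not independent.

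**Figure D1:**
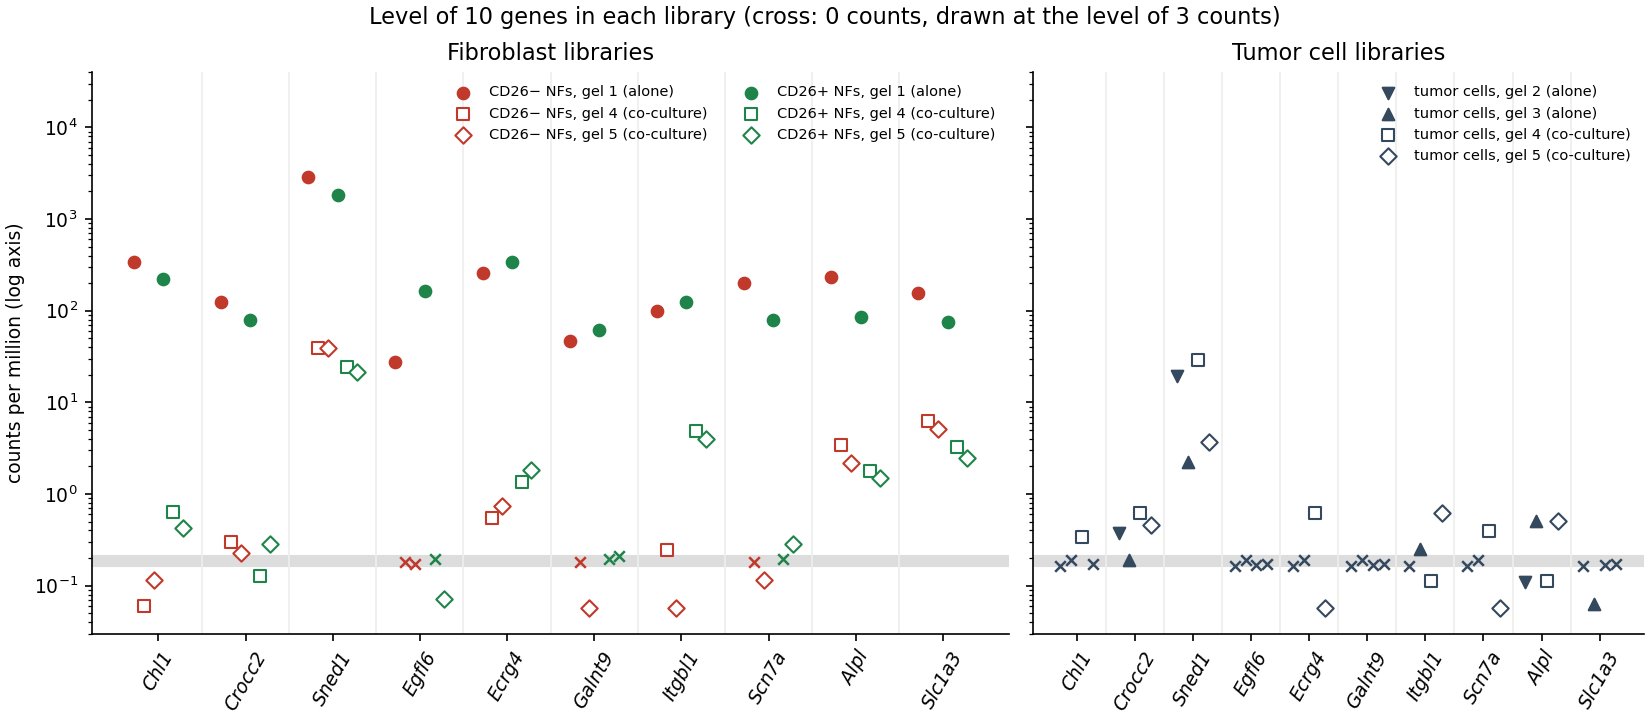
Level of the 10 genes in CPM (log axis) in the 6 fibroblast libraries (left) and the 4 tumor cell libraries (right). Filled symbols are gels of a single cell type and open symbols are co-cultures, crosses are libraries at 0 counts drawn at the level of 3 counts, and the gray band is that level over all libraries (0.163 to 0.212 CPM). All gel 1 values lie above all co-culture values of the same gene, and only Sned1 exceeded 1 CPM in tumor libraries.

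Sned1, a matrix glycoprotein with a NIDO domain and EGF-like repeats, had the most counts of the group, with 2891 CPM in the CD26- and 1828 CPM in the CD26+ library of gel 1. Beside tumor cells, in gels 4 and 5, the CD26- libraries held 39.5 and 39.1 CPM and the CD26+ libraries 24.5 and 21.6 CPM. The fall was 73.2-fold (95% counting interval 67.7 to 79.2) and 73.9-fold (68.5 to 79.8) in CD26- NFs of gels 4 and 5. In CD26+ NFs it was 74.5-fold (67.3 to 82.6) and 84.7-fold (75.7 to 95.2). Sned1 was thus still measured well above the floor, and it kept 1.18% to 1.37% of its level, and the order of the subsets was the same in all 3 gels.

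Egfl6, a secreted EGF-like protein with a MAM domain, was the most uneven between the subsets of gel 1, with 163 CPM in CD26+ and 27.4 CPM in CD26- NFs. In co-culture it had 0 counts in 3 libraries and 1 count in CD26+ NFs of gel 5. The fall was at least 151-fold and 159-fold in CD26- NFs of gels 4 and 5 and at least 845-fold in CD26+ NFs of gel 4. Against the single count in CD26+ NFs of gel 5 the ratio was 2302 (413 to 90958). The smaller bounds in CD26- NFs go with their lower start, and the subsets cannot be ordered by depth for this gene.

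Itgbl1, a secreted protein whose repeats resemble the stalk of integrin beta subunits, had 100.1 CPM in CD26- and 124 CPM in CD26+ NFs of gel 1. In CD26- NFs of gels 4 and 5 it had 4 counts (0.242 CPM) and 1 count (0.0575 CPM). In CD26+ NFs of the same gels it had 76 counts (4.88 CPM) and 57 counts (4.03 CPM). The subsets had nearly the same level alone and did not overlap in co-culture. The fall was 413-fold (161 to 1518) and 1739-fold (312 to 68741) in CD26- NFs, and 25.3-fold (20.1 to 32.3) and 30.6-fold (23.5 to 40.6) in CD26+ NFs. Among the members with counts in every NF library, only Itgbl1 had counting intervals that separated the subsets in both gels. The share over all genes was not computed.

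Chl1, a transmembrane adhesion protein related to L1CAM, had 344 CPM (5546 counts) in CD26- and 222 CPM (3165 counts) in CD26+ NFs of gel 1. It kept 1 and 2 counts in CD26- NFs of gels 4 and 5, ratios of 5683 (1019.6 to 224520.4) and 2992 (828 to 24712). In CD26+ NFs it kept 10 and 6 counts, falls of 346-fold (188 to 722) and 524-fold (240.3 to 1428). CD26- NFs were the higher subset alone and the lower in both co-cultures. The counting intervals of the subsets did not overlap in gel 4 but did in gel 5.

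Ecrg4, the precursor of a secreted peptide also named augurin, had 260.3 CPM in CD26- and 336 CPM in CD26+ NFs of gel 1. In gels 4 and 5 it had 9 and 13 counts (0.545 and 0.748 CPM) in CD26- NFs and 21 and 26 counts (1.35 and 1.84 CPM) in CD26+ NFs. The falls were 477-fold (251 to 1045) and 348-fold (203 to 654) in CD26- NFs and 249-fold (163 to 402) and 183-fold (124 to 279.8) in CD26+ NFs. CD26+ NFs were higher than CD26- NFs in every gel. The intervals of the subsets overlapped in both gels.

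Alpl, tissue-nonspecific alkaline phosphatase, which hydrolyzes pyrophosphate and is known from bone, had 234 CPM in CD26- and 84.6 CPM in CD26+ NFs of gel 1. In gels 4 and 5 the CD26- libraries had 3.39 and 2.19 CPM and the CD26+ libraries 1.80 and 1.48 CPM. The falls were 68.9-fold (52.9 to 91.4) and 107-fold (77.7 to 151) in CD26- NFs and 47.0-fold (32.4 to 71.1) and 57.0-fold (37.1 to 92.4) in CD26+ NFs. The transcript stayed above the counting floor in every co-cultured NF library, at 21 to 56 counts.

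Galnt9, a Golgi enzyme of the family that starts mucin-type O-glycans, had 46.2 CPM (744 counts) in CD26- and 62.3 CPM (887 counts) in CD26+ NFs of gel 1. Co-cultured NFs had 0 counts except for 1 count in CD26- NFs of gel 5. The fall was at least 254-fold in CD26- NFs of gel 4 and at least 323-fold and 293-fold in CD26+ NFs of gels 4 and 5. The ratio to the single count was 803 (144 to 31749). With Egfl6 it was the member nearest to silence, at or under 3 counts in all 4 libraries, and its depth is limited by its starting level.

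Scn7a, which encodes a sodium channel that responds to extracellular sodium rather than to voltage, had 199.6 CPM in CD26- and 79.3 CPM in CD26+ NFs of gel 1. It had 0 counts in both subsets of gel 4 and 2 and 4 counts in CD26- and CD26+ NFs of gel 5. The fall in gel 4 was at least 1098-fold in CD26- NFs and at least 412-fold in CD26+ NFs. In gel 5 it was 1734 (479.8 to 14328) as a ratio in CD26- NFs and 280.4-fold (109 to 1031) in CD26+ NFs. Slc1a3, the glutamate and aspartate transporter known from glia, had 157 and 74.4 CPM in CD26- and CD26+ NFs of gel 1. In gels 4 and 5 the CD26- libraries had 6.24 and 5.18 CPM and the CD26+ libraries 3.28 and 2.47 CPM. Its falls were the smallest of the group, from 22.7-fold (17.1 to 30.7) in CD26+ NFs of gel 4 to 30.3-fold (24.5 to 37.8) in CD26- NFs of gel 5. CD26- NFs were about equally far above CD26+ NFs in all 3 gels, with ratios of 2.11, 1.91 and 2.09.

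Crocc2, the relative of rootletin beside Sned1, had 126 CPM in CD26- and 79.6 CPM in CD26+ NFs of gel 1. It had 5 and 4 counts in CD26- NFs of gels 4 and 5 and 2 and 4 counts in CD26+ NFs. The falls were 415-fold (178 to 1281) and 547-fold (213 to 2009) in CD26- NFs. In CD26+ NFs the ratio in gel 4 was 619.5 (171 to 5122), and the fall in gel 5 was 281-fold (109.6 to 1035). In gel 1 the neighbors Crocc2 and Sned1 had the same ratio of CD26- to CD26+ NFs, 1.58 each.

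**Figure D2:**
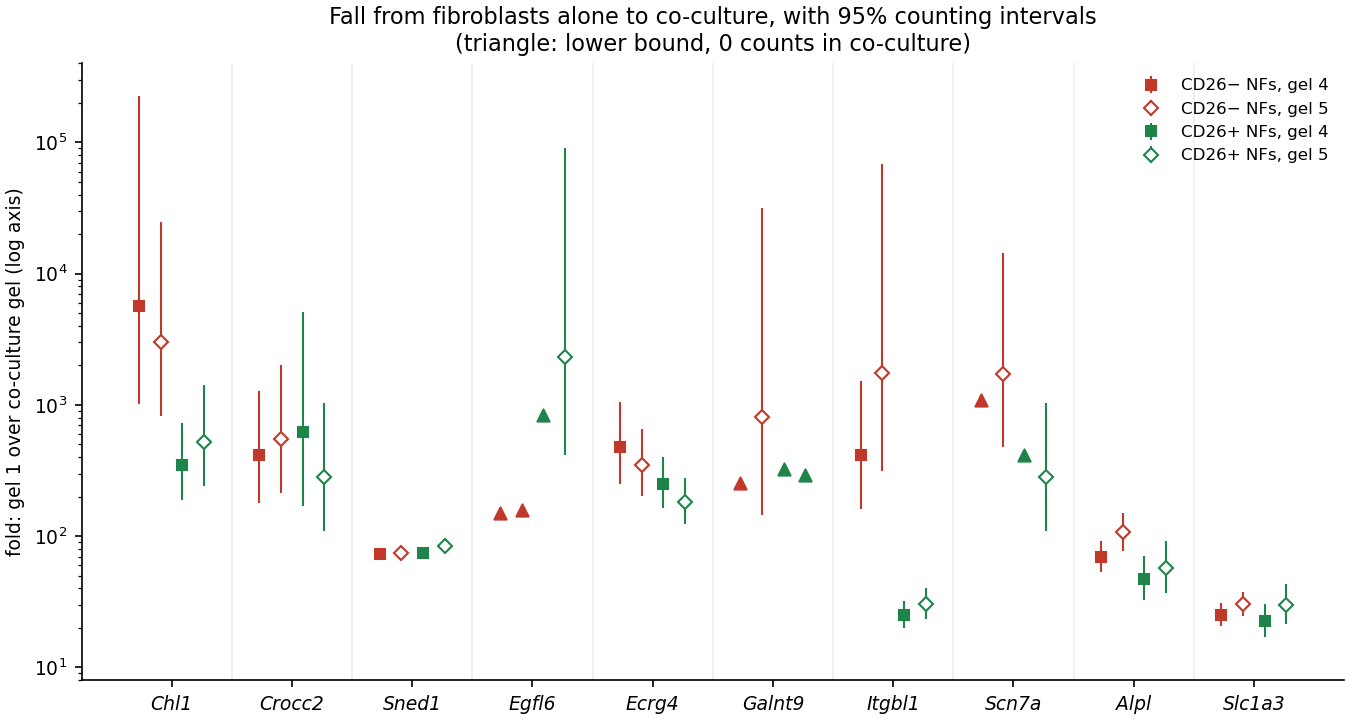
Fold of the level in gel 1 over the level in gel 4 or 5 (log axis) for each gene in CD26- NFs (red) and CD26+ NFs (green). Bars are exact 95% counting intervals, and triangles are lower bounds for libraries at 0 counts. The red and green bars of Itgbl1 do not overlap in either gel, whereas those of Slc1a3, Crocc2 and Ecrg4 do.

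For the genes with counts in every NF library, the intervals of gels 4 and 5 overlapped within each subset. Some of these intervals were wide, such as 312 to 68741 for Itgbl1 in CD26- NFs of gel 5, so their overlap shows little. The share over all genes was not computed. To ask whether the residual level differed between the gels with 13-MCB-17 and 10-SJK-221, the co-cultured libraries were compared over all genes. No gene was called, 0% of 15013 (0 at an edgeR adjusted p under 0.05, 947 at an unadjusted p under 0.05). The count over all genes was 23 with DESeq2, 150 without the filter on low counts and 304 with the 4 co-cultured libraries alone. Egfl6, Galnt9, Scn7a, Crocc2 and Chl1 had at most 10 counts in any co-cultured library and were in the fit through gel 1, so this comparison could show little for them. Scn7a, for one, had 0 counts in gel 4 and 2 and 4 counts in gel 5. For Sned1, the gene with most counts, the difference of gel 5 from gel 4 was -0.04 on the log2 scale (SE 0.171), and for Slc1a3 it was -0.26 (SE 0.193).

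To ask how the subsets differ, the CD26+ libraries of the 3 gels were set against the CD26- libraries. Slc1a3, Sned1 and Alpl were lower in CD26+ NFs. The fit called these and Egfl6, 4 of the 10 genes, where 7.53% of 15013 genes were called. Slc1a3 differed by -1.18 on the log2 scale (SE 0.149, edgeR adjusted p = 0.00415), and Sned1 by -0.89 (SE 0.134, edgeR adjusted p = 0.0073). Both were lower in CD26+ NFs in 3 of 3 gels. Alpl differed by -1.30 (SE 0.207, edgeR adjusted p = 0.00926), also in 3 of 3 gels. Egfl6 had a fitted difference of 2.43 (SE 0.251, edgeR adjusted p = 0.00144), but it was in the fit through gel 1, which gave all but 1 of its counts, so this value describes 1 library of each subset. DESeq2 gave it an adjusted p of 0.1.

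The calls of Slc1a3, Sned1 and Alpl held without gel 4 (edgeR adjusted p 0.00757 to 0.0296), where Egfl6 loses only a pair of libraries at 0 counts. Scn7a passed there as well (-1.34, edgeR adjusted p = 0.0213). That call rests on gel 1, since gel 5 had 4 and 2 counts in CD26+ and CD26- NFs. Without gel 5, calls were lost over all genes, with 0.118% of 14434 genes called against 7.53% over 3 gels. Of the 10 genes 0 were then called (edgeR adjusted p 0.0573 for Egfl6, 0.075 for Alpl, 0.0806 for Slc1a3 and 0.19 for Sned1). Their log2 differences stayed at 2.45, -1.42, -1.15 and -0.80. Without gel 1, that is within co-culture, 3 of the 10 genes were called, where 6.78% of all genes tested were. Sned1 (-0.94, edgeR adjusted p = 0.00693) and Slc1a3 (-1.15, edgeR adjusted p = 0.0473) were still called and Alpl was not (-0.92, edgeR adjusted p = 0.21). Itgbl1, which did not pass over 3 gels, had CD26+ over CD26- ratios of 20.1 in gel 4 and 70.0 in gel 5. The other 6 genes did not pass over 3 gels. Of these, Crocc2, Scn7a, Chl1 and Galnt9 had at most 10 counts in any co-cultured library and were in the fit through gel 1. For them the test says little beyond 1 library of each subset. Chl1 went the other way in gels 4 and 5, with CD26+ over CD26- ratios of 10.6 and 3.69 on few counts. Crocc2 differed by -0.76 (edgeR adjusted p = 0.055), Scn7a by -1.33 (0.0625), Itgbl1 by 1.49 (0.164), Ecrg4 by 0.51 (0.188), Chl1 by -0.37 (0.581) and Galnt9 by 0.26 (0.627). With the gel as a replicate block, which pairs the subsets of a gel, Scn7a passed (-1.34, edgeR adjusted p = 0.0267). With 0 to 4 counts in each co-cultured library, this value too describes mostly the 1 library of each subset in gel 1. In gel 5 the ratio of CD26+ to CD26- NFs was 2.46, the other way, on 4 and 2 counts.

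**Figure D3:**
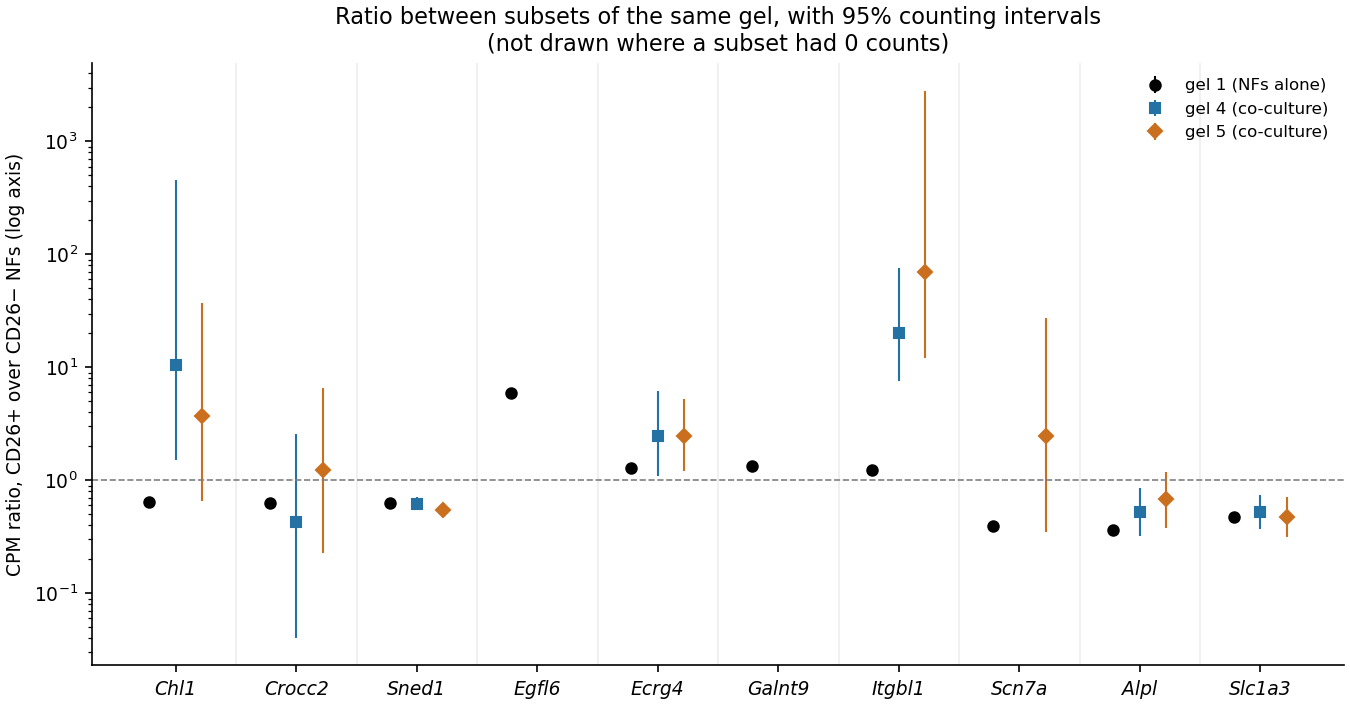
Ratio of the level in CD26+ NFs to that in CD26- NFs of the same gel (log axis, dashed line at equal levels), with exact 95% counting intervals, in gel 1 (black), gel 4 (blue) and gel 5 (orange). Sned1 and Slc1a3 stayed below the line in all 3 gels, whereas Itgbl1 moved from 1.23 in gel 1 to 20.1 in gel 4 and 70.0 in gel 5.

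To ask whether the fall itself differed between the subsets, the interaction of subset and culture was tested. Of the 6 genes not chosen for their fall within a single subset, Itgbl1 was called and the other 5 were not, where 0.376% of 16231 genes were called. The interaction of Itgbl1 was 4.52 on the log2 scale (SE 0.525, edgeR adjusted p = 0.00278), a smaller fall in CD26+ NFs. It was called in all 5 alternative fits, with adjusted p-values of 5.36e-14 to 0.024. With the gel as a replicate block, 395 genes rather than 61 were called. The ratio of CD26+ to CD26- NFs was 1.23 (1.15 to 1.32) in gel 1, 20.1 (7.55 to 75.8) in gel 4 and 70.0 (12.1 to 2814) in gel 5. NFs alone gave 1 library of each subset, so the spread behind this test comes from the co-cultured libraries alone.

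The other tested interactions were smaller. They were 0.88 for Ecrg4 (SE 0.438), 0.69 for Alpl (SE 0.385), 0.26 for Crocc2 (SE 0.776), 0.07 for Slc1a3 (SE 0.345) and -0.14 for Sned1 (SE 0.308), with edgeR adjusted p-values of 0.683 to 1. Differences in depth within these errors were not detectable. Crocc2 had 2 to 5 counts in each co-cultured library and was in the fit through gel 1, so the test could show little for it. Chl1, with a fitted interaction of 3.11 (SE 0.696), Scn7a, Galnt9 and Egfl6 were named in an earlier analysis for their fall within a subset, so their values stand as descriptions.

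Among the 8540 genes with at least 10 CPM in both libraries of NFs alone, the 10 genes had some of the deepest falls, as the choice of the genes required. The median log2 fall of all these genes was 0.11 and that of the 10 genes 8.23. A fall of at least 16-fold was seen for 88 genes (10 members), of at least 64-fold for 31 (8 members) and of at least 8 on the log2 scale for 8 (6 members). Their ranks by fall were 2 for Chl1, 3 for Scn7a, 4 for Egfl6, 6 for Crocc2, 7 for Galnt9 and 8 for Ecrg4, followed by 25 for Sned1, 28 for Alpl, 37 for Itgbl1 and 61 for Slc1a3. These ranks depend on the starting level, which sets the largest fall that can be seen.

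**Figure D4:**
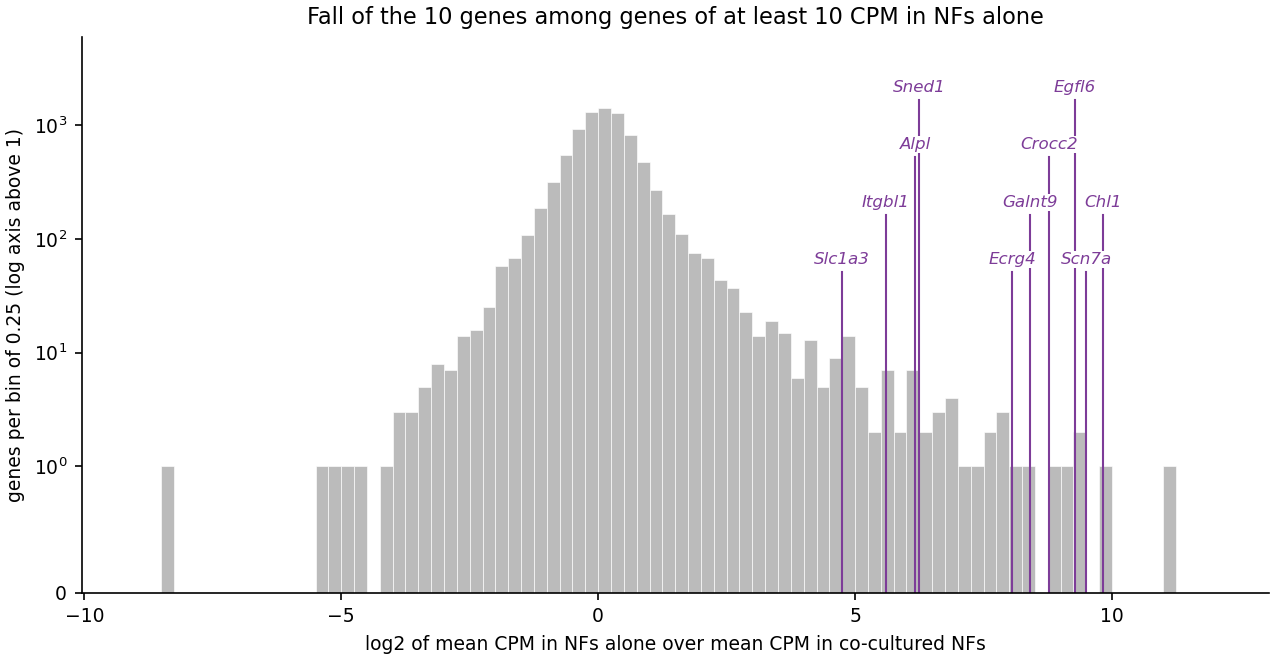
Number of genes (log axis above 1) by the log2 of the mean level in NFs alone over the mean in co-cultured NFs, for 8540 genes with at least 10 CPM in both libraries of NFs alone and with 0 counts set to 3. Purple lines mark the 10 genes, from Slc1a3 at 4.75 to Chl1 at 9.83, against a median of 0.11 over all these genes.

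Near-complete loss was rare. Of the 8540 genes, 9 (0.105%) were at or under 3 counts in all 4 co-cultured NF libraries: Cfi, Clca3a1, Clec3b, Egfl6, Galnt9, Kera, Tnmd, Vtn and Wdr86. At or under 10 counts there were 16, which included Chl1, Crocc2 and Scn7a as further members. At 0 counts in all 4 there was 1, Clca3a1. Sned1, Alpl, Slc1a3, Ecrg4 and Itgbl1 exceeded 10 counts in at least 1 co-cultured library and were reduced but still detected.

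Among the 10 genes whose pattern over the 10 libraries was most like the mean of the members were Ptn, Ildr2, Wdr86, Limch1, Lgr5, Col6a5, Clca3a1, Cfi and Ogn, with Pearson correlations of log2(CPM + 0.5) from 0.994 to 0.987. This is a description over 10 libraries that share the step between NFs alone and all others, and 5 of the 10 remained in the list with a pseudocount of 0.1 and 7 with 2. Ptn, a heparin-binding growth factor, went from 652 and 1238 CPM in CD26- and CD26+ NFs alone to between 0.182 and 0.778 CPM in co-cultured NFs. Ogn, a small leucine-rich proteoglycan, went from 137 and 138 CPM to between 0.364 and 0.990 CPM. Lgr5, a receptor for R-spondins, went from 48.9 and 19.4 CPM to between 0.283 and 0.633 CPM. Col6a5, a chain of collagen VI, went from 175 CPM to 1.09 and 1.77 CPM in CD26+ NFs and from 169.6 CPM to 0.121 and 0.173 CPM in CD26- NFs.

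Tumor cells had little of these transcripts. Of the 40 values of the 10 genes in tumor libraries, 19 were 0 counts and 7 exceeded 10 counts. Egfl6 and Galnt9 had 0 counts in all 4 tumor libraries, and Slc1a3 had 0.0636 CPM in gel 3 and 0 in the other 3. Chl1 and Scn7a were at 0 counts in both tumor libraries without NFs and at 0.339 and 0.396 CPM in the tumor library of gel 4. Sned1 was the exception, at 19.4 CPM in 13-MCB-17 alone and 28.9 CPM in its co-culture, and at 2.23 and 3.65 CPM in 10-SJK-221 alone and in co-culture.

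To ask whether tumor cells changed the same genes, co-cultured tumor cells were compared with tumor cells alone, with the line as a term. Sned1 was the only member with enough counts to be tested. It was higher in co-culture by 0.59 on the log2 scale (SE 0.179, edgeR adjusted p = 0.0471), in both lines, where 22.3% of 13197 genes were called. The call was lost with RLE scaling (edgeR adjusted p = 0.0579), with DESeq2 (adjusted p = 0.324) and without the line as a term (edgeR adjusted p = 0.892). Without the line and any 1 library the difference ran from -1.66 to 2.91, negative without gel 3 or gel 4 and never called. Of 7 tested fibroblast markers, 6 were also higher in co-cultured tumor libraries, among them Col1a1, at 89.1 and 28.1 CPM in gels 4 and 5 against 3.10 and 1.78 CPM in gels 2 and 3. Col3a1 had 32.5 and 19.4 CPM against 0.326 and 0.127 CPM. Vim, at 1195 and 1297 CPM in tumor cells alone, was nearly all of the summed panel. The part of fibroblast RNA in the Sned1 difference was not tested.

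Close relatives of 9 of the 10 genes, all but Ecrg4, moved in both directions. Of 71 genes in 10 lists, 2 of them for Chl1, 50 were tested between co-cultured NFs and NFs alone. By the edgeR test 15 were lower, 18 higher and 17 did not pass, where 22.9% of all genes tested were called lower and 25.9% higher. Their median log2 change was 0.45, also with 3 genes at 0 counts in NFs alone held at their bound, against 0.02 over all genes tested. The lowest relative was Galnt13, at -4.72. Gel 1 is the reference here too.

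Among adhesion and matrix relatives, some genes moved the same way as the member. Nfasc, of the L1 family with Chl1, fell by 3.29 on the log2 scale (SE 0.184, edgeR adjusted p = 1.3e-06), from 54.2 and 30.0 CPM in CD26- and CD26+ NFs alone to between 2.55 and 5.81 CPM. The other 2 tested members of that family did not pass, L1cam at 4.10 and 5.76 CPM alone and Nrcam at 16.6 and 14.7 CPM alone. Cntn1, a contactin, fell by 4.50 (SE 0.373, edgeR adjusted p = 1.3e-05). Nid2, a basement membrane protein that shares the NIDO domain of Sned1, fell by 2.94 (SE 0.213, edgeR adjusted p = 6e-06), from 368 and 464 CPM to between 39.7 and 72.0 CPM. Nid1, its more abundant relative, had 1422 to 2036 CPM in the 6 NF libraries and did not pass, nor did Tecta. Npnt, which like Egfl6 has EGF-like repeats and a MAM domain, fell by 1.44 and Egfl7 rose by 1.95.

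Of 8 integrin beta subunits, the closest namesakes of Itgbl1, none was lower, 5 were higher and 3 did not pass, where 25.9% of all genes were called higher. Itgb3, the beta subunit of the vitronectin receptor, rose by 5.04 on the log2 scale (SE 0.201, edgeR adjusted p = 2e-07). Its level went from 13.5 and 13.2 CPM alone to between 332 and 521 CPM. Itgb6, an epithelial integrin subunit, went from 0 counts to between 0.919 and 2.18 CPM, at least 7.54-fold higher against 3 counts per library, while tumor libraries had 10.6 to 13.6 CPM. Itgb4, another epithelial subunit, had 12.2 to 27.2 CPM in co-cultured NFs and 482 to 721 CPM in tumor libraries. The part of tumor cell RNA in these rises was not tested. Crocc, which encodes rootletin itself, rose by 0.77 while its relative Crocc2 fell.

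Among enzymes, GalNAc transferases were split, with 5 lower, 4 higher and 6 not passing of 15 tested. Galnt13 fell by 4.72 on the log2 scale (SE 0.475, edgeR adjusted p = 4.27e-05), from 32.7 and 16.1 CPM to between 0.182 and 1.35 CPM, and Galnt5 fell by 1.80. Galnt3 and Galnt6 had 0 counts in NFs alone and rose to between 2.91 and 11.2 CPM and between 1.09 and 16.5 CPM, at least 35.8-fold and 40.1-fold higher. Galnt3 had 68.4 to 130.5 CPM in tumor libraries, whereas Galnt6 did not exceed 0.283 CPM there. Of the genes around Alpl that handle phosphate and pyrophosphate, 1 was lower and 4 higher of 5 tested. Ank, which exports pyrophosphate, fell by 1.11, while Nt5e, the ectonucleotidase CD73, rose by 3.07 and Slc20a1, a phosphate importer, rose by 2.90.

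Among channels and transporters, 4 of 13 sodium channel genes were tested and all 4 were called. The auxiliary subunit Scn3b fell by 2.75 (SE 0.621, edgeR adjusted p = 0.00522) and Scn2a fell by 2.30, while Scn4a rose by 3.15. These levels were low, at most 14.0 CPM for Scn2a. Of 6 further SLC1 transporters, 2 were lower, 2 higher and 2 did not pass. Slc1a6 fell by 1.47 and Slc1a7 rose by 1.49, both at under 4 CPM, and these calls were lost with DESeq2 (adjusted p of 0.0554 and 0.0651).

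**Figure D5:**
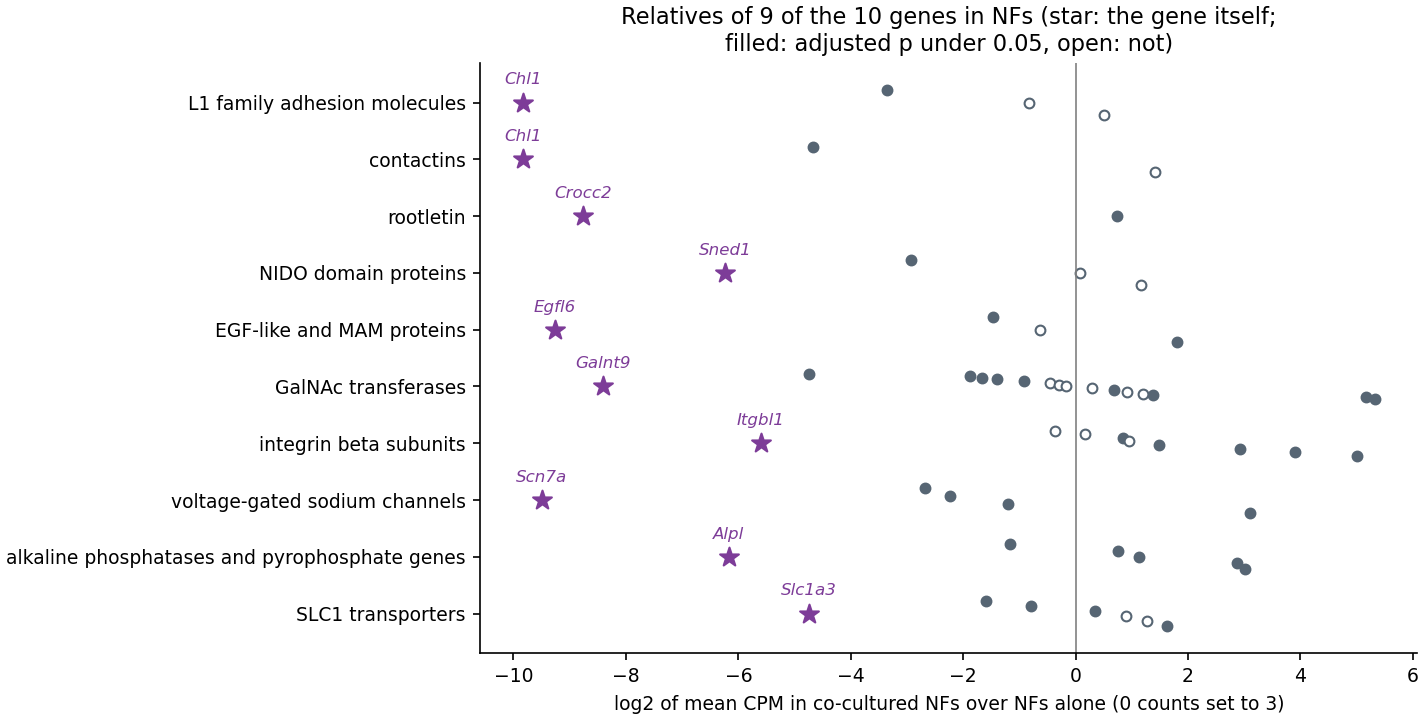
Log2 of the mean level in co-cultured NFs over NFs alone for tested relatives of 9 of the 10 genes (circles, filled where the edgeR adjusted p was under 0.05) beside the gene itself (stars), with 0 counts set to 3. In each of the 10 lists the star lies to the left of every circle, as the choice of the genes favors. The circles are on both sides of 0, with 15 lower, 18 higher and 17 open.

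Genes next to the members on their chromosomes changed about as often as all genes. Of 35 neighbors, the nearest 2 protein-coding genes on each side, 21 were tested, and 10 were called (47.6%, against 48.8% of all genes), with 7 lower, 3 higher and 11 not passing. Mterf4, a mitochondrial transcription factor gene that overlaps the 3′ end of Sned1 on the opposite strand, fell by 1.69 on the log2 scale (SE 0.199, edgeR adjusted p = 0.000112). It shares exon bases with Sned1, so where counting ignored strand its fall cannot be told apart from that of Sned1. With 20.2 and 26.1 CPM in NFs alone, Mterf4 was small beside the level Sned1 lost. Pask, 7704 bases beyond Sned1, changed by 0.21 and did not pass. Uxs1, 4387 bases from Ecrg4, fell by 0.37, and Tceanc, 4439 bases from Egfl6, changed by -0.22 and did not pass.

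Farther neighbors moved in both directions. Ranbp3l, 257184 bases from Slc1a3, fell by 2.33 (SE 0.573, edgeR adjusted p = 0.00809) at a level of at most 1.37 CPM, and Fhl2, 533617 bases from Ecrg4, fell from 151 and 165 CPM to between 27.7 and 36.4 CPM (edgeR adjusted p = 1.64e-06). Rap1gap, 11871 bases from Alpl, rose by 1.63 (SE 0.195, edgeR adjusted p = 0.000127) and had 48.6 to 73.3 CPM in tumor libraries. Ddx51 and Rab9 fell by 1.12 and 0.94, Nck2 by 0.53, while Tmsb4x rose by 0.48 and Nadk2 by 0.43. Ece1, Eif4g3, Fbrsl1, Nipbl, Noc4l, Pdzrn3, Tmtc4, Tpp2 and Usp48 did not pass, with changes from -0.55 to 0.19. Around Chl1 and Scn7a the family relatives Cntn6, Cntn3 and Scn9a were at or near 0 in all NF libraries, at no more than 0.0702 CPM.

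Markers of other cell types moved beside the members and are given as measured. Chl1 and Scn7a are also known from Schwann cells. Of 10 Schwann cell markers 5 were tested, and Ngfr and S100b were lower in co-culture, Erbb3 was higher and 2 did not pass. S100b went from 4.35 and 5.47 CPM to between 0.485 and 2.19 CPM and fell by 2.28 on the log2 scale (edgeR adjusted p = 0.00158). Foxd3 had 0 counts in every NF library and Sox10 had 0 in NFs alone. The panel summed to 17.7 and 119 CPM in CD26- and CD26+ NFs alone, mostly Ngfr at 10.2 and 110.3 CPM, and to between 4.03 and 11.6 CPM in co-cultured NFs. A panel of 6 adipocyte markers summed to 1038 and 1529.9 CPM alone and to between 116 and 341 CPM in co-culture. Lpl made up nearly all of the sum in NFs alone, and Adipoq did not exceed 2.53 CPM. Of the 4 tested genes, Lpl and Plin1 were lower, while Adipoq and Fabp4 did not pass. Fabp4 changed by 0.02 on the log2 scale (edgeR adjusted p = 0.951). It went from 28.4 CPM to 38.3 and 49.6 CPM in CD26+ NFs. In CD26- NFs it went from 15.5 CPM to 8.54 and 10.8 CPM. A panel of 6 osteoblast markers, checked because Alpl is known from bone, went from 1733 and 2542 CPM to between 7269 and 12012 CPM, nearly all of it Spp1, which tumor libraries also held at 3592 to 4621 CPM. Of its 5 tested genes, Sp7 was lower, Spp1 and Dmp1 were higher and Ibsp and Runx2 did not pass. Sp7, an osteoblast transcription factor, went from 30.6 and 18.3 CPM to between 2.33 and 5.35 CPM and fell by 2.58 (edgeR adjusted p = 1.05e-05).

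The sums of the other panels of non-fibroblast cells rose or overlapped, although Tek and Lyz2 in them fell. Mural cell markers summed to 63.1 and 91.9 CPM in NFs alone and to 210.2 to 564 CPM in co-cultured NFs. Of these, Cspg4, Mcam and Notch3 were higher. Rgs5 (-1.05 on the log2 scale), Abcc9 (-0.79) and Kcnj8 (0.59) did not pass. Endothelial markers went from 4.60 and 9.76 CPM to between 8.06 and 24.5 CPM and immune cell markers from 11.5 and 13.4 CPM to between 32.0 and 64.4 CPM. Tek fell by 2.48 (edgeR adjusted p = 0.0063) while Pecam1 and Cdh5 rose. Lyz2 went from 6.02 and 4.07 CPM to between 0.173 and 0.964 CPM and fell by 3.47 (edgeR adjusted p = 0.000479). Cd68, which made up most of the immune sum in co-culture, rose by 2.84 (edgeR adjusted p = 3.98e-05) and had 34.8 to 299 CPM in tumor libraries. A panel of 10 genes of resting fibroblasts was mixed, with 4 lower, 5 higher and 1 not passing by the edgeR test, and sums of 4404 and 4585 CPM alone and 2668 to 3840.1 CPM in co-culture. Of it, Igf1 went from 2106 and 1029 CPM to between 13.9 and 31.8 CPM while Penk and Cd34 rose. When the NFs were first isolated, the sort had removed cells with EpCAM, CD49f, CD45 or CD31, which takes out epithelial, immune and endothelial cells. The part of any of these cells in the members' values was not tested.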

How the data were processed

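The 10 libraries measured poly(A) RNA of sorted cells, prepared with a stranded mRNA kit and sequenced on HiSeq and NovaSeq instruments. Which library ran on which instrument was not given in the sources used here. The authors deposited 1 table of whole-number read counts for each gene and library, not normalized. The submitters' processing notes name HISAT2 2.2.1 and GRCm38, while the annotation, the program that counted reads and whether it used strand are not given in the sources used here. Of 55486 gene IDs, 99.38% were in GENCODE M21, and 99.42% of these had the same coordinates. A line that names no gene was left out (0 counts).

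CPM is the count over the library total. Folds of single libraries carry exact 95% conditional intervals, and a library at 0 counts was set to 3 counts, which makes the fold a lower bound. Both cover the error of counting alone, because without molecular identifiers PCR copies cannot be told from separate molecules.

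Tests were run in R 4.3.3 with the quasi-likelihood F test of edgeR 4.0.16, TMM scaling and filterByExpr, with Benjamini-Hochberg adjustment over all genes tested and a threshold of 0.05. NF culture and subset were fitted together on 6 libraries, the interaction on the same libraries in 4 groups, the gels with subset and gel as terms, and the 4 tumor libraries with line and culture. The study's own test was DESeq2, which is an alternative here (version 1.42.0). Further alternatives were RLE scaling, other filters, gel as a block and leaving out each gel. The fits were tested on simulated data. Gels pair the subsets by construction, and the deviations of gel 5 from gel 4 correlated at 0.231 between CD26- and CD26+ NFs. Nothing says that the NFs of different gels came from separate sorts, so p-values measure the spread between these samples, which may be technical.

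The members and all lists were chosen with earlier results of these data known. Named genes are the members, per family list the tested genes past 0.05 with an absolute log2 change of at least 1 (at most 2 highest and 2 lowest), tested neighbors, and the 10 genes most correlated with the members' mean in log2(CPM + 0.5) among genes of at least 10 CPM in NFs alone. Further genes were named after their values were seen: Crocc, L1cam, Nrcam, Nid1, Tecta, Itgb4, Igf1, Penk, Cd34 and single cell type markers, and the genes at or under 3 counts. Promoter sequences are those of RefSeq (GRCm38.p6), and 10 of 10 members matched by symbol. A few non-member genes and 1 allele of the tumor lines are not reported here.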

Additional observations from a re-analysis of the deposited data

Results flagged for a closer look

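The fall in co-culture differed between the subsets for Itgbl1, with an interaction of 4.52 on the log2 scale (SE 0.525, edgeR adjusted p = 0.00278). The fall was 27.7-fold in CD26+ NFs and 667-fold in CD26- NFs over the mean of gels 4 and 5. The direction was the same in both gels. The CD26- value rests on 4 counts in gel 4 and 1 count in gel 5, with counting intervals of 161 to 1518 and 312 to 68741. NFs alone were 1 library of each subset, so the spread behind the test comes from the co-cultured libraries alone.

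Among the genes most like the members, Col6a5 also fell less in CD26+ NFs, with an interaction of 3.13 (SE 0.583, edgeR adjusted p = 0.0406). Its call was lost without the filter on low counts (edgeR adjusted p = 0.142) and with a filter of 1 CPM in 2 libraries (edgeR adjusted p = 0.0621).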

How the results depend on the processing

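Of 396 alternative values of 58 single-gene results, 355 kept direction and side of the threshold, 31 lost their call, 3 gained one and 7 changed sign. The changes of sign were Chl1 (1.05) and Scn7a (0.10) between subsets with DESeq2, Sned1 in tumor cells without gel 3 (-0.31) or gel 4 (-1.66) and without the line, and, without 1 co-culture gel, the neighbors Fbrsl1 (-0.07 to 0.24), Pdzrn3 (-0.07 to 0.04) and Nipbl (-0.23 to 0.11). None of these was called under the alternative. The median log2 fall of the members over both subsets was 8.32, with 8.68 for a floor of 1 count and 8.13 to 8.16 without a co-culture gel, and all 20 falls stayed above 16-fold in every alternative run. Genes at or under 3 counts in co-culture numbered 17 with a minimum of 5 CPM alone and 3 with 20 CPM, with 16 at 10 counts and 1 at 0 counts.

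Over all genes, 1130 calls between subsets ran from 17 to 1299 when a gel was left out. Member calls (4) ran from 0 to 5. Scn7a joined without gel 4, through gel 1, which gave nearly all of its counts. Interaction calls (61) were 18 without a filter, 38 with 1 CPM in 2 libraries and 98 with DESeq2. With gel as a replicate block they were 395, with 2 members called, Itgbl1 and Chl1 (the latter chosen for its fall within a subset), and Scn7a passed between subsets. The block changed no other member call. Gel 5 against gel 4 gave 0 calls, with 150 without a filter, 23 with DESeq2 and 304 with 4 libraries. Tumor calls (2942) were 1547 with DESeq2, 0 without the line and 0 to 159 without a library and the line, and Sned1 was called in 0 of these and in 0 with RLE. The cause was not tested, and fewer libraries leave fewer degrees of freedom. The interaction without a gel has no residual degrees of freedom and was not fitted. Depth limits the fall of Egfl6, Galnt9 and Scn7a, which is a bound.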
